A study of Mus musculus with 6 samples.

Results

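The genes described here are 36 genes of glycolysis and of the response to low oxygen, chosen by symbol from the 15458 rows of a read count table made from liver Kupffer cells. All 36 were present and all 36 had enough reads to be tested. They were put into 7 sets by role: 3 glucose transporters, 4 genes of hexokinase and glucose phosphate isomerase, 5 of phosphofructokinase and its regulators, 8 from aldolase to pyruvate kinase, 5 of lactate handling and pyruvate diversion, 5 that make or limit the hypoxia-inducible factors (HIF), and 6 HIF target genes outside glycolysis. Kupffer cells, the macrophages that reside in liver sinusoids, had been sorted by flow cytometry from tumour-bearing C57BL/6 mice on day 18 after implantation. In the KC_Epo group (3 libraries) the implanted Hepa1-6 hepatoma cells overexpressed erythropoietin, and in the KC_EV group (3 libraries) they carried an empty vector. The mice of both groups were wild type and both carried a Hepa1-6 tumour, so no tumour-free liver is among the groups. The sources used here give neither the age or sex of the mice nor the sorting gate. Nothing in the labels states that the 3 libraries of a group stem from different animals, and the p-values therefore measure only the spread among the libraries, which may be technical.

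Glycolysis turns glucose into pyruvate in the cytosol. Hexokinases trap glucose, phosphofructokinase commits it to the pathway, and the steps from aldolase to pyruvate kinase yield ATP and pyruvate. Lactate dehydrogenase then converts pyruvate and lactate into each other. HIF-1 alpha and HIF-2 alpha are marked for destruction by prolyl hydroxylases when oxygen is present. When they are stable they bind a short DNA core and raise the transcription of target genes. For HIF-1 alpha these include most glycolytic enzymes. In macrophages HIF-1 alpha is also raised by inflammatory signals, and glycolysis is known to increase with inflammatory activation.

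Libraries held 23201076 to 33280754 counts, and the 36 genes took 0.461 to 0.524% of them in KC_Epo and 0.506 to 0.533% in KC_EV. Levels are given as CPM, read counts relative to the library total after TMM scaling, and log2 fold changes (KC_Epo over KC_EV) with ± their SE from edgeR. Of the cell type markers listed, Ahsp, Trac and H19 had no row in the count table, and no other was at 0 over a group. Of 10 Kupffer cell markers 7 were higher and 1 lower in KC_Epo with a summed level of 49420 to 56640 CPM in KC_Epo, against 34110 to 36660 CPM in KC_EV. Of 10 sinusoidal endothelial markers 8 were lower and 1 higher, with sums of 2235 to 2920 CPM in KC_Epo and 4501 to 5250 CPM in KC_EV. Of 10 hepatocyte markers 7 were higher, with sums of 5624 to 19600 CPM in KC_Epo and 2518 to 3116 CPM in KC_EV, and all 7 tested red cell markers were higher. None of 7 neutrophil markers passed, with sums of 29.2 to 32.1 CPM in KC_Epo and 6.97 to 242.5 CPM in KC_EV. Of 6 dendritic cell markers 4 were lower, with sums of 87.6 to 99.4 CPM in KC_Epo and 135.7 to 142.7 CPM in KC_EV. Of 6 monocyte markers 2 were higher and 2 lower. Of 4 B and plasma cell markers 1 was higher, and none of 5 T and NK cell markers passed. In sorted bulk samples, fewer cells of a type and less RNA per cell cannot be told apart.

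The glycolytic and hypoxia genes did not shift together. By the edgeR quasi-likelihood test with Benjamini-Hochberg adjustment over all genes (threshold 0.05), 4 of the 36 were higher in KC_Epo, namely Hk2, Eno1, Aldoa and P4ha1. The 8 that were lower were Ldhb, Ndrg1, Slc2a6, Vegfa, Hk1, Pfkp, Pfkfb3 and Hif1a. The 24 others did not pass. Thus 33.3% of the genes were called, where 32.3% of the 13120 genes tested were called in either direction, 16.9% as higher and 15.4% as lower. The groups did not overlap for 15 of the 36, against 48.3% of all genes tested. The median log2 fold change was -0.038 for the 36 and -0.0045 for all genes, and the median absolute value was 0.15 and 0.25. All 4 rises were smaller than 1.5-fold, and 4 of the falls, those of Ldhb, Ndrg1, Slc2a6 and Vegfa, were larger. Of all genes tested, 5.78% were called higher and 9.99% called lower by more than 1.5-fold. Scaling by library size alone shifted the median of all genes to -0.16, and then 1 of the 36 (Hk2) was higher and 12 were lower; over all genes, higher ones then made up 24.8% of the calls, where TMM gave 52.4% and upper-quartile factors 40.6%. The number lower was 5 without KC_Epo 3 and 5 without KC_EV 1.

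**Figure D1:**
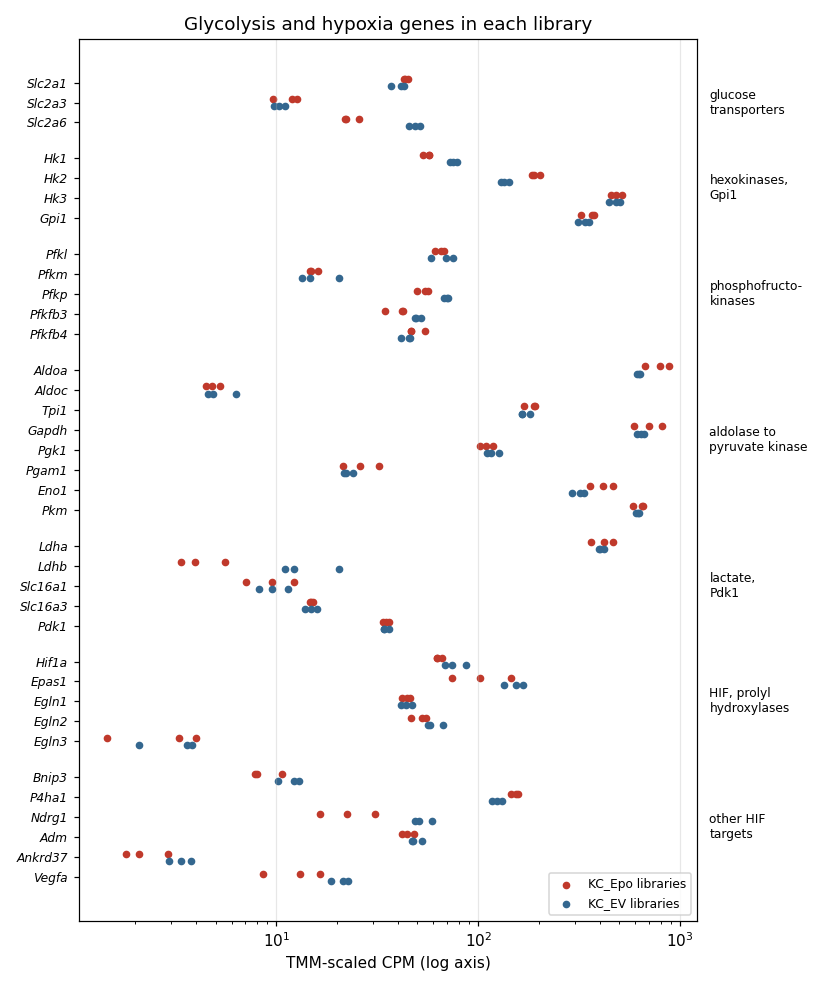
TMM-scaled CPM (log axis) of the 36 genes in each of the 3 KC_Epo libraries (red) and 3 KC_EV libraries (blue), grouped by role. Most genes overlap between the groups, while Slc2a6, Ldhb, Ndrg1 and Vegfa sit lower in every KC_Epo library and Hk2, Eno1 and Aldoa sit higher in every KC_Epo library.

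**Figure D2:**
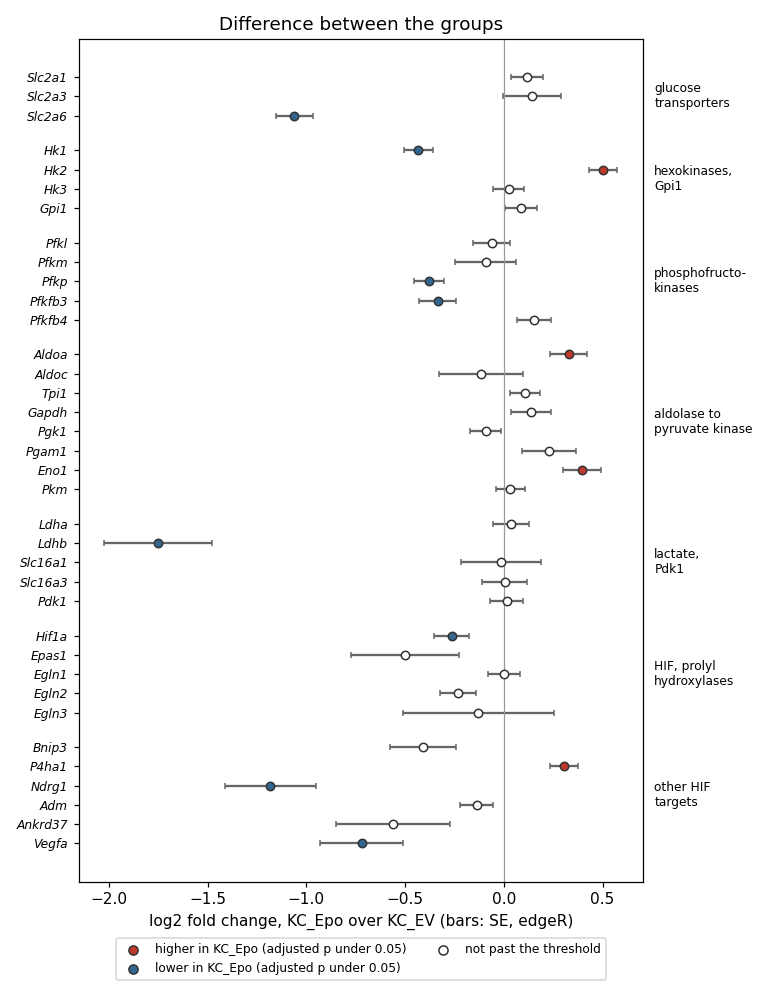
Log2 fold change, KC_Epo over KC_EV, with its standard error from edgeR, for the same 36 genes. Filled points passed an adjusted p of 0.05, with 4 genes higher (red) and 8 lower (blue); the values run from -1.75 for Ldhb to 0.50 for Hk2.

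The core of the hypoxia response element, ACGTG or GCGTG, was searched on both strands in RefSeq promoter windows of the mouse build GRCm38.p6, each from 250 bases before to 50 bases after a transcription start; overlapping matches were counted. Windows existed for 33 of the 36 genes, and 31 of these (93.9%) held a match in at least 1 window, against 46.7% of all genes with a window and 63.0% of those in the count table. Genes with more windows have more places for a match. Counted by window, the share was 83.3%, against 43.8% of all windows and 57.6% of those of genes in the count table. The 36 were chosen as glycolysis and hypoxia genes, so a high share is not a result of these data. A match stood in all 4 higher genes, in all 7 lower genes that had a window and in 20 of the 22 that did not pass, so its presence did not separate the calls. The 250 bases before the start are shown for the 2 largest rises and the 2 largest falls that had a window with a match, as examples from either side of the response; capitals mark the core as read on this strand, where CACGT and CACGC are the reverse complements. They lie at chr6:82774455-82774704 (minus strand) for Hk2, chr4:150236947-150237196 (plus strand) for Eno1, chr6:142507958-142508207 (minus strand) for Ldhb and chr2:27027999-27028248 (minus strand) for Slc2a6.
Hk2: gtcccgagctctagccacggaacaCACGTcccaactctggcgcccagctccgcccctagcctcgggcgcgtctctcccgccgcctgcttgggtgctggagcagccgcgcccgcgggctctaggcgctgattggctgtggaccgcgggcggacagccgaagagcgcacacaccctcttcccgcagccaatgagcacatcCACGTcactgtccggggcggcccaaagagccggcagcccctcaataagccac
Eno1: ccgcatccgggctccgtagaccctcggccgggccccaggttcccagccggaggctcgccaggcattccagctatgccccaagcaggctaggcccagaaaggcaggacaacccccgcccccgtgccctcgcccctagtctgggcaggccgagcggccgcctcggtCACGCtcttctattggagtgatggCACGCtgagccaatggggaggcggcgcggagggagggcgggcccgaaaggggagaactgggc
Ldhb: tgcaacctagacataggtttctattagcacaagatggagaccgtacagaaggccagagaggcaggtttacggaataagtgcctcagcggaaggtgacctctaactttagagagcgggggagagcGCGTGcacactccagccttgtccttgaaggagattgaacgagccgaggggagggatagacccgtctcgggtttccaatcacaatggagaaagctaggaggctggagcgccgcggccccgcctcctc
Slc2a6: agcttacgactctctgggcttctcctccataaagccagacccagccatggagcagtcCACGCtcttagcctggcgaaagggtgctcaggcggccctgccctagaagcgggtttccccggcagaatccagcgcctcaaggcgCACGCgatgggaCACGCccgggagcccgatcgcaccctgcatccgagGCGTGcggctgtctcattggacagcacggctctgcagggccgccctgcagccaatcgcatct
In the stretches shown, Slc2a6 held 4 cores, Hk2 and Eno1 2 each and Ldhb 1. Hk2, Ldhb and Slc2a6 had 1 window each, whereas Eno1 had 3, of which 1 is shown; another, at chr4:150236458-150236757, does not overlap it and held 2 further matches. The Hk2 cores began 226 and 52 bases before the start. A match is a stretch of letters and says nothing of whether a factor was bound in these cells.

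Among the glucose transporters, Slc2a6 fell and the others did not pass. Slc2a6, a hexose transporter of lysosomal membranes that inflammatory macrophages induce, had 25.6, 22.2 and 21.9 CPM in KC_Epo 1 to 3, against 45.4, 48.8 and 51.6 CPM in KC_EV 1 to 3. Every KC_Epo library lay below every KC_EV library, and the log2 fold change was -1.06 ± 0.09 (edgeR adjusted p = 7.84e-06). Slc2a1, the widely used basal transporter GLUT1, had 43.6, 44.98 and 42.8 CPM in KC_Epo and 36.9, 41.4 and 42.9 CPM in KC_EV; the groups overlapped and it did not pass (0.12 ± 0.08, edgeR adjusted p = 0.302). Slc2a3, the high-affinity transporter GLUT3, was at 11.4 ± 1.56 CPM in KC_Epo and 10.4 ± 0.612 CPM in KC_EV (SD, n = 3 each) and did not pass either. Per kilobase of exon, the level of Slc2a6 was below that of Slc2a1 in KC_Epo (10.9 ± 0.964 and 13.4 ± 0.335 CPM per kb) and above it in KC_EV (22.7 ± 1.45 and 12.4 ± 0.959 CPM per kb).

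The hexokinases moved apart. Hk2, the inducible isoform and a HIF-1 target, had 185.3, 202.4 and 188.9 CPM in KC_Epo, against 142.0, 134.7 and 129.9 CPM in KC_EV. The groups were well separated, with a log2 fold change of 0.50 ± 0.07 (edgeR adjusted p = 0.000247). Hk1, the constitutive isoform, had 56.9, 53.3 and 57.0 CPM in KC_Epo and 78.2, 74.6 and 72.6 CPM in KC_EV. It fell in all KC_Epo libraries, by 0.43 on the log2 scale (edgeR adjusted p = 0.000807). Hk3, the myeloid isoform, was the most abundant of them and did not pass, at 484.1 ± 32.97 CPM in KC_Epo and 476.0 ± 29.8 CPM in KC_EV (SD, n = 3 each). Per length, Hk3 made up 75.9 ± 0.789% of hexokinase transcripts in KC_Epo and 78.1 ± 1.81% in KC_EV. The share of Hk2 was 18.0 ± 0.319% in KC_Epo and 13.3 ± 1.14% in KC_EV, and that of Hk1 was 6.06 ± 0.555% and 8.55 ± 0.67%. Gpi1, which isomerises glucose phosphate, did not pass (0.09 ± 0.08). The calls for Hk2, Hk1 and Slc2a6 held under all 18 alternative settings tried.

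At phosphofructokinase, the rate-setting step, the platelet-type isoform and a regulator fell. Pfkp had 49.8, 56.3 and 54.7 CPM in KC_Epo, against 68.0, 71.1 and 69.8 CPM in KC_EV. The groups did not overlap, and the log2 fold change was -0.38 ± 0.07 (edgeR adjusted p = 0.00247); in the annotation release GENCODE M21, 17.4% of its exon length is shared with Pitrm1 on the opposite strand. Pfkl, the liver-type isoform, was at 64.7 ± 3.47 CPM in KC_Epo and 67.6 ± 8.30 CPM in KC_EV (SD, n = 3 each) and did not pass. Pfkm, the muscle-type isoform, did not pass either, with 14.6 to 16.04 CPM in KC_Epo and 20.5, 14.6 and 13.4 CPM in KC_EV 1 to 3, where library 1 stood above all others. Per length, Pfkp made up 35.8 ± 2.42% of phosphofructokinase transcripts in KC_Epo and 40.8 ± 0.847% in KC_EV, and Pfkl 49.7 ± 1.91% and 45.5 ± 4.02%. Pfkfb3 makes the allosteric activator of phosphofructokinase and is induced by hypoxia and inflammatory signals. It had 34.4, 42.1 and 42.3 CPM in KC_Epo and 52.1, 49.2 and 48.4 CPM in KC_EV, lower by a log2 fold change of -0.33 ± 0.09 (edgeR adjusted p = 0.0161), a call lost without KC_EV 1 (-0.30, adjusted p = 0.059). Pfkfb4, its relative, had 54.5, 46.6 and 46.7 CPM in KC_Epo, all above the 41.4, 46.2 and 45.4 CPM in KC_EV, but did not pass (0.15 ± 0.09, edgeR adjusted p = 0.204).

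From aldolase to pyruvate kinase, 2 of 8 genes rose and 0 fell (25% called, against 32.3% of all genes), and the median log2 fold change was 0.12. With library sizes alone none rose and Pgk1 was lower (-0.25, adjusted p = 0.0218). Eno1, the main enolase, had 358.8, 466.7 and 414.0 CPM in KC_Epo, against 292.3, 318.3 and 332.9 CPM in KC_EV. No KC_Epo library reached down to the KC_EV range, and the log2 fold change was 0.39 ± 0.10 (edgeR adjusted p = 0.00865). The near-identical copy Eno1b had 416 counts in KC_EV 1 and 7 to 21 in the other libraries; adding it gave 305.4 CPM in KC_EV 1, still below the lowest KC_Epo sum of 359.0 CPM. Aldoa, the main aldolase, had 673.2, 880.7 and 792.9 CPM in KC_Epo and 626.1, 608.3 and 635.2 CPM in KC_EV, a log2 fold change of 0.33 ± 0.09 (edgeR adjusted p = 0.0182). The KC_Epo libraries lay above and were more spread. Its call was lost without KC_Epo 3 (0.33, adjusted p = 0.0729), KC_EV 1 (0.33, adjusted p = 0.0542), KC_EV 2 (0.31, adjusted p = 0.0744) or KC_EV 3 (0.34, adjusted p = 0.0575). Scaled by library size alone, Aldoa was at 0.17 (adjusted p = 0.141) and Eno1 at 0.23 (adjusted p = 0.0621), neither past the threshold. A further row under the symbol Aldoa held 5 to 16 counts per library and was kept apart.

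The 6 other enzymes of this stretch did not pass. Gapdh, often used to normalise measurements, had 592.9, 809.3 and 698.8 CPM in KC_Epo and 608.3, 637.5 and 665.0 CPM in KC_EV (0.14 ± 0.10, edgeR adjusted p = 0.333). KC_Epo 1 lay below all KC_EV libraries and the other KC_Epo libraries above them. Without KC_Epo 1 it passed as higher (0.25, adjusted p = 0.0217), and so did Pgam1, phosphoglycerate mutase (0.37, adjusted p = 0.0257). Pgam1 had 21.3, 32.2 and 26.1 CPM in KC_Epo and 21.7, 22.2 and 24.1 CPM in KC_EV. Tpi1, triose phosphate isomerase, was at 0.11 ± 0.08 and Pkm, the pyruvate kinase of most tissues, at 0.032 ± 0.07. In GENCODE M21, 12.9% of the exon length of Pkm is shared with Gm49759 on the same strand. Pgk1, phosphoglycerate kinase and a HIF-1 target, was at -0.09 ± 0.08, with 110.2 ± 8.31 CPM in KC_Epo and 117.4 ± 8.04 CPM in KC_EV (SD, n = 3 each). Aldoc, the brain-type aldolase, was at 4.86 ± 0.398 and 5.26 ± 0.923 CPM. Several of these genes have many processed pseudogenes that can share reads, which leaves the value of each one uncertain.

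For lactate, Ldha did not pass while Ldhb had the largest fall of the 36. Ldhb, the heart-type subunit, whose tetramers favour conversion of lactate to pyruvate, had 5.59, 3.38 and 3.97 CPM in KC_Epo, against 20.3, 12.2 and 11.1 CPM in KC_EV. The groups did not overlap, and KC_EV 1 was the highest library. The log2 fold change was -1.75 ± 0.27 (edgeR adjusted p = 0.0013), and -1.43 without KC_EV 1, with the call kept under all 18 settings. Ldha, the muscle-type subunit and a HIF-1 target, had 360.4, 466.4 and 417.5 CPM in KC_Epo and 394.6, 399.7 and 418.0 CPM in KC_EV, with KC_Epo 1 lowest and KC_Epo 2 highest of all. Ldhb made up 1.54 ± 0.601% of lactate dehydrogenase transcripts per length in KC_Epo and 4.97 ± 1.75% in KC_EV (SD, n = 3 each). Of 5 cholangiocyte markers 3 were lower, and their sums were 15.5, 9.11 and 11.7 CPM in KC_Epo 1 to 3 and 61.5, 36.3 and 28.2 CPM in KC_EV 1 to 3. The high sum of KC_EV 1 came from 1 marker, Krt7, with 35.7, 3.68 and 4.28 CPM in KC_EV 1 to 3. The other markers differed in their order over KC_EV 1 to 3. Epcam (2.93, 2.78 and 1.92 CPM) was highest in KC_EV 1, as Ldhb was. Spp1 (17.1, 19.2 and 13.5 CPM) was highest in KC_EV 2, while Krt19 (5.58, 9.40 and 7.44 CPM) and Sox9 were lowest in KC_EV 1. The sums of endothelial, dendritic cell and fibroblast markers were also lower in every KC_Epo library than in every KC_EV library. The part of cholangiocytes or of these other cells in the Ldhb difference was not tested. The monocarboxylate carriers, which move lactate across the membrane, did not pass: Slc16a3, the exporter of glycolytic cells, was at 14.9 ± 0.322 CPM in KC_Epo and 14.9 ± 1.04 CPM in KC_EV, and Slc16a1 at 9.61 ± 2.57 and 9.70 ± 1.61 CPM. Pdk1, a HIF-1 target that holds pyruvate back from the mitochondrion, was at 35.03 ± 1.25 CPM in KC_Epo and 34.7 ± 1.18 CPM in KC_EV.

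In the oxygen-sensing system, Hif1a was the member that passed. It had 62.2, 62.8 and 65.8 CPM in KC_Epo, against 86.6, 74.1 and 68.5 CPM in KC_EV. The groups did not overlap, by a narrow margin, and the log2 fold change was -0.26 ± 0.09 (edgeR adjusted p = 0.0387). The call was lost without KC_Epo 1 (-0.24, adjusted p = 0.0727), KC_Epo 2 (-0.25, adjusted p = 0.0826), KC_Epo 3 (-0.28, adjusted p = 0.0986), KC_EV 1 (-0.16, adjusted p = 0.111) or KC_EV 2 (-0.28, adjusted p = 0.0778). It was also lost without KC_EV 1 and KC_Epo 1 together and with the replicate numbers as a block. Epas1, which encodes HIF-2 alpha and is also high in endothelial cells, had 146.0, 74.3 and 101.5 CPM in KC_Epo and 134.9, 166.3 and 154.4 CPM in KC_EV. KC_Epo 1 lay among the KC_EV libraries and the other 2 below them; it did not pass (-0.50 ± 0.28, edgeR adjusted p = 0.24) but passed as lower without KC_Epo 1 (-0.79, adjusted p = 0.00485). The prolyl hydroxylase Egln2 had 46.4, 55.0 and 52.8 CPM in KC_Epo, below the 57.9, 56.5 and 66.6 CPM in KC_EV, without passing (-0.23 ± 0.09, edgeR adjusted p = 0.0686). It passed without KC_Epo 2 (-0.28, adjusted p = 0.0486), with library sizes alone (-0.39, adjusted p = 0.00509) and with upper-quartile factors (-0.29, adjusted p = 0.0272). Egln1, the main oxygen sensor among the prolyl hydroxylases, was at 44.0 ± 2.09 CPM in KC_Epo and 44.1 ± 2.74 CPM in KC_EV (SD, n = 3 each). Egln3, the hypoxia-induced isoform, was the scarcest, at 2.92 ± 1.32 and 3.18 ± 0.959 CPM, with 45 to 125 counts per library.

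Among the HIF target genes outside glycolysis, 1 of 6 rose, 2 fell and 3 did not pass (50% called, against 32.3% of all genes). Ndrg1, a stress-responsive gene also induced by differentiation, had 30.7, 16.5 and 22.5 CPM in KC_Epo, against 50.7, 59.3 and 48.4 CPM in KC_EV. Every KC_Epo library was lower, with a log2 fold change of -1.18 ± 0.23 (edgeR adjusted p = 0.0125). The call was lost without KC_Epo 3 (-1.15, adjusted p = 0.0583). Vegfa, the vascular growth factor, had 16.4, 8.62 and 13.1 CPM in KC_Epo and 18.7, 21.5 and 22.7 CPM in KC_EV, a log2 fold change of -0.72 ± 0.21 (edgeR adjusted p = 0.0305). The groups did not overlap, yet the call was lost without KC_Epo 3 (-0.73, adjusted p = 0.101), KC_EV 1 (-0.79, adjusted p = 0.0552), KC_EV 2 (-0.70, adjusted p = 0.0966) or KC_EV 3 (-0.66, adjusted p = 0.103). It was also lost with the replicate numbers as a block. P4ha1, a prolyl hydroxylase of collagen assembly, went the other way, with 145.9, 154.1 and 158.0 CPM in KC_Epo, all above the 130.6, 117.4 and 123.2 CPM in KC_EV (0.30 ± 0.07, edgeR adjusted p = 0.00672). With library sizes alone it did not pass (0.14, adjusted p = 0.107).

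The 3 others had log2 fold changes below 0 and did not pass. Bnip3, a mitophagy receptor, had 10.7, 7.82 and 8.07 CPM in KC_Epo and 12.96, 12.2 and 10.2 CPM in KC_EV (-0.41 ± 0.17, edgeR adjusted p = 0.0768), and passed as lower without KC_Epo 1 (-0.56, adjusted p = 0.0201), with library sizes alone (-0.57, adjusted p = 0.0224) and with upper-quartile factors (-0.47, adjusted p = 0.0464). Ankrd37, an ankyrin repeat protein, had 2.92, 1.80 and 2.10 CPM in KC_Epo, just below the 3.78, 2.94 and 3.36 CPM in KC_EV (-0.56 ± 0.29, edgeR adjusted p = 0.158). Adm, the peptide hormone adrenomedullin, had 44.2, 48.0 and 41.7 CPM in KC_Epo and 47.2, 47.7 and 52.5 CPM in KC_EV; it was at -0.14 ± 0.08, and passed as lower with library sizes alone (-0.30, adjusted p = 0.0144). In GENCODE M21, 27.2% of the exon length of Bnip3, 26.2% of that of Ankrd37 and 19.2% of that of Ndrg1 overlap genes on the opposite strand; the kit keeps strand, but the sources used here do not give the counting option.

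The KC_Epo libraries differed among themselves in a way that ran through the list. All 8 genes from aldolase to pyruvate kinase were lowest in KC_Epo 1, against 38.6% of all genes tested, and 7 of these 8 ran KC_Epo 2, 3, 1 from high to low. Ldha, Hk2, Hk3 and Gpi1 had the same order, as did the Kupffer marker sum, at 49420, 56640 and 52060 CPM in KC_Epo 1 to 3. The monocyte and the T and NK cell marker sums ran this way too. Among the Kupffer markers, Marco ran KC_Epo 1, 3, 2 (10440, 8098 and 8825 CPM in KC_Epo 1 to 3) and Timd4 ran KC_Epo 2, 1, 3. The other Kupffer markers ran KC_Epo 2, 3, 1. Of the 6 HIF targets outside glycolysis, 4 were highest in KC_Epo 1, against 39.0% of all genes, and Ndrg1, Vegfa, Bnip3, Ankrd37 and Epas1 ran KC_Epo 1, 3, 2. The same order held for the sums of hepatocyte markers (19600, 5624 and 11720 CPM in KC_Epo 1 to 3), of sinusoidal endothelial markers (2920, 2235 and 2480 CPM) and of stellate cell and fibroblast markers (60.5, 27.1 and 41.97 CPM). It also held for the red cell (1108, 606.1 and 809.9 CPM), cholangiocyte (15.5, 9.11 and 11.7 CPM), dendritic cell (99.4, 87.6 and 93.4 CPM) and neutrophil sums (32.1, 29.2 and 30.5 CPM). Of these sums, the hepatocyte and red cell ones were higher in KC_Epo and the neutrophil ones overlapped between groups. The others were lower in KC_Epo, as were Ndrg1 and Vegfa. The fibroblast sums were 106.7 to 115.8 CPM in KC_EV, and 3 of their 6 markers were lower in KC_Epo. Of all genes tested, 26.7% ran in the order 1, 3, 2 and 26.0% in the order 2, 3, 1, so both orders were common in these libraries. The part of other cell types in these differences was not tested.

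**Figure D3:**
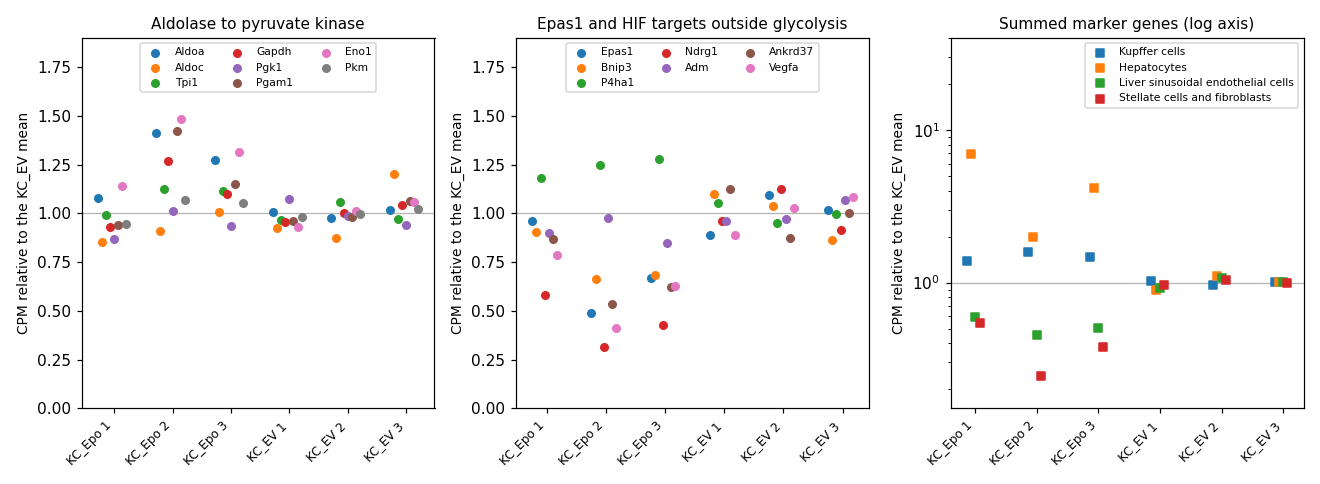
CPM relative to the KC_EV mean in each library, for the 8 genes from aldolase to pyruvate kinase (left), for Epas1 and the 6 HIF targets outside glycolysis (middle) and for summed markers of 4 cell types (right, log axis). In KC_Epo the glycolytic genes are lowest in KC_Epo 1 while Ndrg1, Vegfa and Epas1 are lowest in KC_Epo 2, as are the hepatocyte, endothelial and fibroblast sums.

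Ratios between related genes do not depend on how libraries are scaled. With 3 libraries against 3, a two-sided exact permutation test cannot go below p = 0.1, and 10 ratios were compared. For 6 of the 10 the groups did not overlap, each with an exact p = 0.1 (0.167 adjusted over the 10). Of single genes tested, 48.3% did not overlap, and no such share was computed over ratios. All of the 6 but Egln2 to Egln1 hold a gene already called above, so they are largely not separate results. The ratio of Hk2 to Hk1 counts was 3.26, 3.80 and 3.32 in KC_Epo, against 1.81, 1.81 and 1.79 in KC_EV. That is a 1.91-fold difference, the KC_EV libraries being nearly identical. Ldha to Ldhb was 64.5, 138 and 105 in KC_Epo and 19.4, 32.8 and 37.7 in KC_EV, a 3.39-fold difference. Pfkfb4 to Pfkfb3 was 1.59, 1.11 and 1.10 in KC_Epo and 0.794, 0.939 and 0.94 in KC_EV, above 1 in every KC_Epo library and below 1 in every KC_EV library. Hk3 to Hk1 was higher (1.37-fold) and Pfkp to Pfkl (0.799-fold) and Egln2 to Egln1 (0.851-fold) lower in KC_Epo. The ratios Slc16a3 to Slc16a1, Slc2a3 to Slc2a1, Hif1a to Epas1 and Egln3 to Egln1 overlapped between groups.

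**Figure D4:**
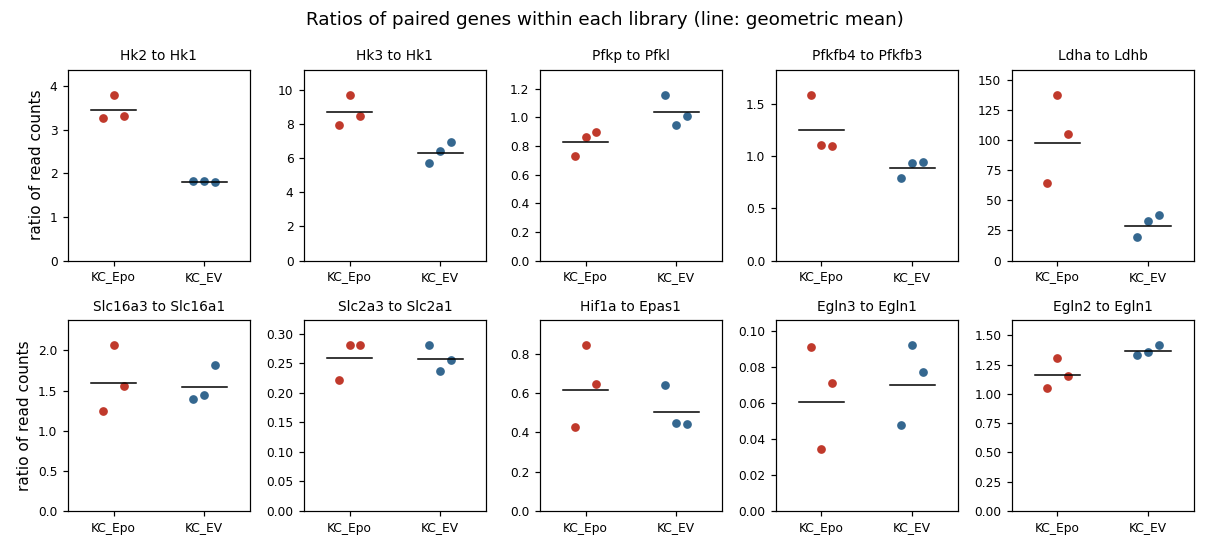
Ratio of read counts between 2 related genes in each library, for 10 ratios, with KC_Epo (red) left of KC_EV (blue) and the geometric mean as a line. Hk2 to Hk1 and Ldha to Ldhb are higher in every KC_Epo library, while Slc2a3 to Slc2a1 overlaps.

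Per kilobase of exon, the levels of the 36 genes spanned a wide range. Gapdh stood highest, at 468.4 ± 72.4 CPM per kb in KC_Epo and 426.0 ± 18.95 in KC_EV (SD, n = 3 each), followed by Aldoa at 428.9 ± 57.1 and 341.7 ± 7.49. In KC_Epo these neighbours lay within their spread, and in KC_EV they did not. Pkm, Ldha, Eno1, Hk3, Gpi1 and Tpi1 came next, between 242.2 CPM per kb for Pkm in KC_Epo and 95.95 CPM per kb for Tpi1 in KC_EV. Hif1a was at 11.7 ± 0.359 CPM per kb in KC_Epo and 14.0 ± 1.70 in KC_EV, below Epas1 at 19.5 ± 6.56 and 27.5 ± 2.87. Among the oxygen sensors Egln2 was highest, at 23.3 ± 2.01 and 27.4 ± 2.47 CPM per kb, then Egln1 at 12.3 ± 0.581 and 12.3 ± 0.761, and Egln3 lowest at 1.10 ± 0.497 and 1.20 ± 0.36.

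Genes of neighbouring pathways were taken from 6 further lists of 93 genes, of which 85 could be tested. Of these, 17 were higher and 13 lower in KC_Epo (35.3% called, against 32.3% of all genes). Of 9 glycogen genes 1 was higher and 0 lower (11.1% called). The pentose phosphate pathway, which branches from glucose phosphate and makes NADPH, had 5 of 7 genes higher and 0 lower. That is 71.4% called, against 32.3% of all genes in either direction and 16.9% as higher. The median log2 fold change of the pathway was 0.55. G6pdx, its first enzyme, had 179.8, 227.0 and 199.8 CPM in KC_Epo, against 131.8, 112.7 and 130.1 CPM in KC_EV (fold 1.62, edgeR adjusted p = 0.000228). Pgd, the next oxidative enzyme, rose 1.47-fold and Taldo1, transaldolase of the non-oxidative branch, 1.52-fold (edgeR adjusted p = 0.000118 and 0.000325). All KC_Epo libraries exceeded all KC_EV libraries for these 3 genes.

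Around pyruvate dehydrogenase, 1 of 13 genes was higher and 2 lower (23.1% called, against 32.3% of all genes). Pdk4, a kinase that shuts the enzyme off in fasting, had 11.5, 6.21 and 8.70 CPM in KC_Epo and 19.04, 24.6 and 23.01 CPM in KC_EV (edgeR adjusted p = 0.0012). It ran KC_Epo 1, 3, 2 from high to low, as did the sum of endothelial markers and 26.7% of all genes. The part of endothelial cells in the Pdk4 fall was not tested. Pdk2, a relative of Pdk4, rose (edgeR adjusted p = 0.0113, and 0.062 without KC_Epo 3), with 17.1, 17.8 and 19.5 CPM in KC_Epo and 12.7, 14.0 and 13.3 CPM in KC_EV. The opposing phosphatase Pdp1 fell by 39.6% (edgeR adjusted p = 0.0255), a call lost without KC_Epo 2, KC_Epo 3, KC_EV 1 or KC_EV 3, where the adjusted p was 0.0532 to 0.0937. Of 12 further glycolysis genes 3 were higher and 0 lower (25% called, against 32.3% of all genes). Slc2a8, an intracellular transporter, was at 1.62-fold (edgeR adjusted p = 0.000719) and Bpgm at 1.40-fold (adjusted p = 0.0324). Tigar, a phosphatase that slows glycolysis, was at 1.37-fold (adjusted p = 0.0285). Bpgm is also an enzyme of red cells, whose summed markers were 606.1 to 1108 CPM in KC_Epo and 33.3 to 43.1 CPM in KC_EV, and the part of red cells was not tested. The calls for Bpgm and Tigar were lost when any of KC_Epo 3, KC_EV 1, KC_EV 2 or KC_EV 3 was left out, with adjusted p from 0.0554 to 0.132, and Bpgm also without KC_Epo 1 (adjusted p = 0.0835). With library sizes alone Pdk2, Bpgm and Tigar did not pass, with adjusted p from 0.0709 to 0.128.

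Among 8 tested genes of HIF control 1 was lower and 0 higher (12.5% called, against 32.3% of all genes). This gene, Vhl, which targets hydroxylated HIF alpha for destruction, fell by 17.7% (edgeR adjusted p = 0.048). It did not pass when any of the 6 libraries was left out (adjusted p from 0.0669 to 0.189), with DESeq2 (adjusted p = 0.0692) or with limma-voom (adjusted p = 0.0537). Of 38 further HIF targets 7 were higher and 10 lower, 44.7% called, against 32.3% of all genes. The 10 include the vascular growth factor receptors Kdr, which is also one of the 10 endothelial markers, and Flt1, both named after their values were seen. Kdr had 126.6, 65.3 and 88.1 CPM in KC_Epo and 319.6, 365.5 and 343.4 CPM in KC_EV, and Flt1 had 50.5, 23.2 and 35.6 CPM in KC_Epo and 80.1, 92.6 and 74.5 CPM in KC_EV. Both ran KC_Epo 1, 3, 2 from high to low, as the sum of endothelial markers did, of which 8 of 10 were lower, and the part of endothelial cells in these falls was not tested. Angptl4, an inhibitor of lipoprotein lipase that PPAR factors also induce, had 18.99, 20.9 and 21.9 CPM in KC_Epo, against 5.08, 5.21 and 7.20 CPM in KC_EV. It rose 3.52-fold (edgeR adjusted p = 6.33e-06), and Plod1, a collagen lysyl hydroxylase, by 49.5% (adjusted p = 0.000134). Mxi1, a MYC antagonist, rose 1.42-fold (adjusted p = 0.00165). In the other direction the chemokine receptor Cxcr4 fell by 39.0% (adjusted p = 0.000669) and the dioxygenase Jmjd6 fell by 21.2% (adjusted p = 0.0065). The calls on HIF targets thus ran in both directions in either list. Counts over the further lists were 9 higher and 8 lower without KC_Epo 3, 11 and 8 without KC_EV 1, and 11 higher without KC_EV 3.

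**Figure D5:**
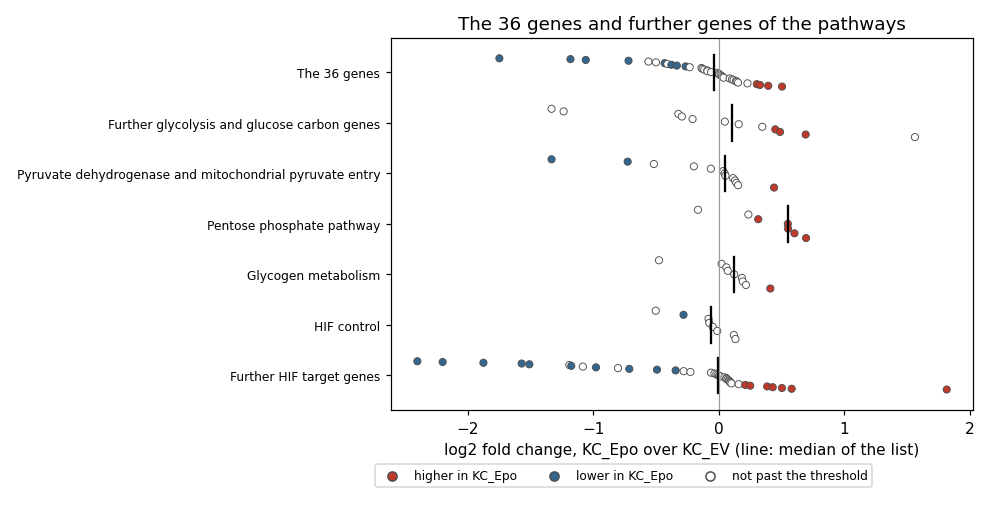
Log2 fold change, KC_Epo over KC_EV, of the 36 genes and of 6 further lists, with the median of each list as a line; red and blue points passed an adjusted p of 0.05. The pentose phosphate list is centred on 0.55, and the others lie between -0.062 and 0.12.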

How the data were processed

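Messenger RNA of sorted Kupffer cells was sequenced in 6 libraries, 3 of KC_Epo and 3 of KC_EV, made with a stranded polyA kit per the labels' protocols. Per the submitters' processing notes the tools were STAR 2.7.3a, FastQC 0.11.8, HTSeq 0.11.2 and Bowtie2 2.5.1 and the build GRCm39, with no role given for any. The authors deposited whole-number read counts per gene symbol, not normalized. Of 12 symbols on 2 rows, Aldoa among them, only the row with the larger total was used under the symbol.

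Counts were fitted in R 4.3.3 with edgeR 4.0.16 (TMM, filterByExpr, robust quasi-likelihood fit, two-sided F test, no block, Benjamini-Hochberg over 13120 genes, threshold 0.05); standard errors came from the F statistic. On simulated counts for this comparison (12996 genes), 50% of 50 genes raised 1.5-fold, 78% of 50 raised 2-fold and 0.0938% of unchanged genes were called. In the simulation 12798 genes were unchanged, whereas 4234 genes were called in the data. The adjustment was thus stricter in the simulation, and its shares are not the detection rates of the real comparison. No library was a copy of another: pairs of a group differed by more than counting noise, with a chi-square per gene from 6.05 upwards. Alternatives were DESeq2 1.42.0, limma-voom (limma 3.58.1), other scalings and filters, a replicate block and each library left out. Exon lengths and overlaps came from GENCODE M21 (GRCm38), another build than the authors', and promoter windows from RefSeq. The genes and lists were chosen with earlier results of these data known, so counts over them are descriptions; Ero1a was matched by its older symbol. From the neighbouring lists, up to 3 called genes per direction with the smallest p were named. Some of the genes this rule names are not reported here.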

Additional observations from a re-analysis of the deposited data

How the results depend on the processing

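Of the 12 genes called among the 36, 5 (Slc2a6, Hk1, Hk2, Pfkp and Ldhb) kept their call under all 18 settings and 0 changed sign. Leaving out 1 library gave 2728 (without KC_Epo 3) to 4557 calls over all genes, against 4234 with all 6, 5 to 9 of the 36 lower, 9 to 20 neighbouring genes higher and 8 to 13 lower, and a median of the 36 from -0.045 to -0.0095. With library sizes alone 1 of the 36 was higher, 8 neighbouring genes were higher and 20 lower, and the median of the 36 was -0.20; with upper-quartile factors it was -0.10, and without KC_EV 1 and KC_Epo 1 together -0.0072. The replicate numbers gave no pairing, as deviations of same-numbered libraries correlated at -0.108, -0.148 and -0.0407 and 0 libraries correlated best with their own number; with them as a block 3358 genes were called.

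All 37 changes of sign among the 36 genes were in genes that passed in neither setting. With library sizes alone Slc2a1 was at -0.042, Slc2a3 -0.018, Hk3 -0.14, Gpi1 -0.074, Pfkfb4 -0.0051, Tpi1 -0.055, Gapdh -0.024, Pkm -0.13, Ldha -0.12, Slc16a3 -0.15 and Pdk1 -0.15. Upper-quartile factors gave Hk3 -0.038, Pkm -0.031, Ldha -0.024, Slc16a3 -0.059 and Pdk1 -0.048. Slc16a3 was at -0.0076 with the 1 CPM filter, and Egln1 at 0.0070 without a filter and 0.00040 with the block. Without KC_EV 1 and KC_Epo 1, Pfkm was at 0.065 and Pgk1 at 0.0059. Leaving out 1 library gave ranges of -0.020 to 0.077 for Hk3, -0.15 to 0.021 for Pfkl, -0.21 to 0.12 for Pfkm, -0.20 to 0.040 for Aldoc, -0.048 to 0.14 for Ldha, -0.22 to 0.18 for Slc16a1, -0.043 to 0.058 for Slc16a3, -0.0040 to 0.047 for Pdk1, -0.040 to 0.050 for Egln1 and -0.44 to 0.21 for Egln3. The log2 ratio differences ran from -0.15 to 0.22 for Slc16a3 to Slc16a1, -0.046 to 0.13 for Slc2a3 to Slc2a1 and -0.49 to 0.21 for Egln3 to Egln1. Where a library left out ended a call, the fit had fewer samples; other causes were not tested. The same settings for the median were added after seeing the data. In the simulation, with this depth and spread but far fewer changed genes, 50% of 1.5-fold rises were called. That share is not the detection rate of the real comparison. A gene that missed the threshold is not shown to be alike in both groups.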
